A study of Homo sapiens with 21 samples.

Results

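AGR2 and 9 other genes of mucosal and luminal secretion (AGR3, MUC1, MUC16, LCN2, SLPI, WFDC2, PIGR, TFF1 and TFF3) were followed through 21 RNA-seq libraries of adherent HCC1806, an established human cell line of triple-negative breast cancer. The 10 genes were taken as a named list, and each was found by its Ensembl identifier among the 60668 genes of both count tables. This list and the further gene lists below were chosen with earlier results of these data known, so counts over them are descriptions. AGR2 had been picked out by its low level in the SRSF3-OE libraries, so every value of SRSF3-OE against its control is given as a description with no test. The first table held 3 libraries each of 3xSR, labelled as joint overexpression of SRSF2, SRSF3 and SRSF7, of MYC-OE, labelled as MYC overexpression, and of a control, 3xCTL. MYC-OE was set against 3xCTL because that is the control of its table; the labels do not say that both carry the same vectors. The second held 3 libraries each of SRSF2-OE, SRSF3-OE and SRSF7-OE, each labelled as overexpression of the gene in its name, and of a single plasmid control, 1xCtrl. All 21 libraries came from this line in DMEM with 15% fetal bovine serum and 1% penicillin and streptomycin, scraped at about 90% confluence, with no drug named. SRSF2, SRSF3 and SRSF7 are splicing factors of the SR family and MYC is a transcription factor; the promoter that drove each gene, whether a line is 1 clone and whether replicates were separate cultures are not given in the sources used here. P-values therefore measure the spread between these libraries, which may be technical.

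AGR2 is a protein disulfide isomerase of the endoplasmic reticulum that assists the folding of mucins and other cysteine-rich secreted proteins, and AGR3 is its close relative in a neighbouring gene. MUC1 and MUC16 are membrane-bound mucins that coat the apical face of glandular epithelium, with MUC16 known as the source of the CA125 antigen. LCN2 is a secreted lipocalin that binds iron-carrying siderophores, SLPI and WFDC2 are secreted proteins of the whey acidic protein family, PIGR carries dimeric IgA across epithelium, and TFF1 and TFF3 are trefoil peptides known in the breast as oestrogen-responsive genes. Such genes mark the luminal and secretory side of the mammary epithelium, in contrast to its basal, keratin 5 and keratin 14 positive side.

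Library totals ranged from 143269192 to 303323552 counts, so that 3 counts, taken as the limit that a count of 0 allows, came to between 0.00947 and 0.0210 CPM, the count scaled to the TMM-adjusted size of its library. The 1xCtrl replicate 2 library stood furthest from the others of its group, with a median absolute log2 difference of 0.242, and this difference followed gene GC content (Spearman rho 0.802 across genes); 1xCtrl replicate 3 (0.165) and 3xCTL replicate 2 (0.162) came next, and all other libraries lay between 0.0513 and 0.106. MYC rose in MYC-OE (log2 fold change 0.90, ± 0.0472 SE, adjusted p = 5.7e-08 by edgeR), SRSF7 in SRSF7-OE (0.26, ± 0.055 SE, adjusted p = 0.00616 by edgeR) and SRSF3 and SRSF7 in 3xSR (0.31 and 0.44, adjusted p = 0.00243 and 3.57e-05 by edgeR). MYC was also higher in 3xSR (0.75, adjusted p = 4.01e-07 by edgeR) and in SRSF7-OE (0.27, adjusted p = 0.00608 by edgeR), and the libraries labelled SRSF2-OE had more SRSF3 (0.30, adjusted p = 0.00794 by edgeR) and SRSF7 (0.24, adjusted p = 0.00681 by edgeR) than 1xCtrl. The MYC rise in SRSF7-OE was not called without 1xCtrl replicate 1 (0.22, adjusted p = 0.104) or 3 (0.20, 0.0642) or without SRSF7-OE replicate 1 (0.25, 0.0672) or 3 (0.23, 0.0747). SRSF3 was at 526 ± 11.9 CPM in SRSF3-OE and 375 ± 39.6 CPM in 1xCtrl (SD, n = 3). SRSF2 was not higher in the libraries labelled SRSF2-OE (398 ± 19.6 CPM against 444 ± 31.5 CPM in 1xCtrl, log2 fold change -0.16, ± 0.064 SE, adjusted p = 0.098 by edgeR) or in those labelled 3xSR (386 ± 12 CPM against 403 ± 18.3 CPM in 3xCTL), so these groups are named by their labels. In SRSF2-OE it was called lower with the GC trend removed, with total counts alone and with no filter. The same held without 1xCtrl replicate 1 or 2 or without SRSF2-OE replicate 1, 2 or 3. SRSF2 was also lower in SRSF7-OE (-0.38, ± 0.064 SE, adjusted p = 0.0018 by edgeR) and in MYC-OE (-0.48, ± 0.0517 SE, adjusted p = 2.32e-05 by edgeR). The exons of SRSF2 share 1106 bases with MFSD11 on the opposite strand, and the strand setting of the counting is not given in the sources used here.

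Epithelial markers (EPCAM, CDH1, KRT8, KRT18 and KRT7) summed to between 1884 and 2876 CPM in every library, and basal or squamous markers (KRT5, KRT14, KRT6A, KRT17 and TP63) to between 3159 and 4381 CPM. Within the latter sum KRT14 stood at 348 ± 62.1 CPM in 3xCTL, 688 ± 13.4 in 3xSR and 482 ± 11.7 in MYC-OE, and at 510 ± 150 in 1xCtrl, 982 ± 85.4 in SRSF3-OE, 558 ± 55.0 in SRSF2-OE and 423 ± 33.0 in SRSF7-OE (SD, n = 3 each). KRT17 stood at 65.5 ± 27.3 CPM in 1xCtrl and 198 ± 21.4 CPM in SRSF3-OE, and KRT5 at 2151 ± 239 and 1662 ± 59.7 CPM. By group mean KRT14, KRT17 and TP63 were highest in 3xSR and in SRSF3-OE, the groups of each table in which AGR2 was lowest. In 3xSR, however, KRT17 (119 to 131 CPM) overlapped 3xCTL (81.2 to 128 CPM). TP63 overlapped there too (167 to 190 against 159 to 170 CPM). KRT5 was lowest by group mean in 3xSR and in SRSF3-OE (2129 ± 98.9 CPM in 3xSR against 2390 ± 268 in 3xCTL), and its 3xSR libraries also overlapped 3xCTL. KRT6A was highest in 3xSR (1099 ± 33.1 CPM) and, in the second table, in SRSF2-OE (1165 ± 107 CPM), where AGR2 was not called. The markers of this list thus did not move together. Hormone receptor positive luminal markers summed to between 137 and 236 CPM, most of it ERBB2, with ESR1 at 6.49 to 11.5 CPM and PGR at no more than 1.46 CPM. Of 4 leukocyte markers (PTPRC, CD3E, CD68 and CD14), CD3E had at most 5 counts in any library, while CD68, a lysosomal gene, reached 36.1 CPM. Their sum moved with the groups, from 7.55 to 13.1 CPM in 3xCTL to 17.7 to 21.5 CPM in 3xSR and 34.6 to 38.5 CPM in MYC-OE, and from 10.6 to 18.3 CPM in 1xCtrl to 29.9 to 33 CPM in SRSF3-OE. Fibroblast markers summed to between 46.5 and 48.4 CPM in 3xCTL, 22.2 and 25.1 CPM in 3xSR and 18.6 and 18.7 CPM in MYC-OE, and to between 27.5 and 31.9 CPM in 1xCtrl and 14.6 and 16 CPM in SRSF3-OE. Most of the fall was in LUM, the matrix protein lumican (37.6 ± 2.01 CPM in 3xCTL and 16 ± 0.764 in 3xSR, 20.1 ± 3.64 in 1xCtrl and 6.28 ± 0.693 in SRSF3-OE), with COL1A2, DCN and PDGFRA under 1 CPM in every library. Endothelial markers stayed between 0.484 and 1.33 CPM. The part of these in the results was not tested.

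Promoters of 7 of the 10 genes were matched in RefSeq (GRCh38.p14), as 250 bases before and 50 after a transcript start. Those of AGR2 and LCN2 are shown because both genes moved alike in 3xSR and in SRSF7-OE, and that of MUC1 because it was lower in each contrast tested against a control. AGR2 is read from chr7:16804950-16805249 on the minus strand, LCN2 from chr9:128149203-128149502 on the plus strand and MUC1 from chr1:155192860-155193159 on the minus strand. Capitals mark CATAAATAG in AGR2 and LCN2 and TATAAA in MUC1.
AGR2: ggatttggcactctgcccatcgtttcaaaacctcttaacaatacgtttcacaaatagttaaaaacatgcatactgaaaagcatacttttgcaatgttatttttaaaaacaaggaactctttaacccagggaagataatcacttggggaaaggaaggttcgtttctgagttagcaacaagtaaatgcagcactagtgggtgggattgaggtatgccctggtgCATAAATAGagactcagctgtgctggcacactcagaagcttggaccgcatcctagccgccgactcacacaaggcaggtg
LCN2: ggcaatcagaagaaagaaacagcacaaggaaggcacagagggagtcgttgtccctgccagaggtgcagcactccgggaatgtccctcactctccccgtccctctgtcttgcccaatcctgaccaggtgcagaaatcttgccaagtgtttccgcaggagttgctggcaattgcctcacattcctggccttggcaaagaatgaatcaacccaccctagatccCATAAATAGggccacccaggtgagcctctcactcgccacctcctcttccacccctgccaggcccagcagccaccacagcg
MUC1: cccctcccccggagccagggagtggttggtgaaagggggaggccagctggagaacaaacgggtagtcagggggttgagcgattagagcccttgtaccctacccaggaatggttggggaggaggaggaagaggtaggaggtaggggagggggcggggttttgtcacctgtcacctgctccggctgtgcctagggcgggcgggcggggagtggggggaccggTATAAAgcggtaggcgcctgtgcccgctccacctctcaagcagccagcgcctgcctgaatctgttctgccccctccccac
CATAAATAG, a variant of the TATA box, stood at position -29 in AGR2 and -30 in LCN2, counted from the start, and was found in 71 of 35116 promoters of this length (0.202%), both strands searched. This motif was chosen after the sequences had been read. TATAAA stood at -30 in MUC1 and was also found in AGR3 and in 11.5% of all promoters. No member's window held the E-box CACGTG (7.26% of promoters), the forkhead motif TGTTTAC (3.42%) or the ETS motif CCGGAAG (10.3%), which says only that these letters are not in these windows. Other starts were not searched. The MUC16 windows, from 9010360 and 9065702, lie outside the gene span given below. The AGR2 and LCN2 windows each lie inside the span of their gene. MUC1 has a further window (155192866-155193165) with TATAAA at -24. None of the motifs found in a member overlapped another.

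Across the contrasts the 10 genes did not move as 1 block. In the libraries labelled 3xSR, AGR2, MUC1, MUC16 and LCN2 fell and SLPI rose. In MYC-OE those 4 and PIGR fell, and SLPI and WFDC2 rose. The libraries labelled SRSF2-OE had less MUC1, MUC16, LCN2 and PIGR and more SLPI. SRSF7-OE had more AGR2, LCN2 and WFDC2 and less MUC1 and MUC16. In SRSF3-OE all 3 libraries lay below all 3 of 1xCtrl for AGR2, MUC1, MUC16, LCN2, WFDC2 and PIGR. The contrasts of the second table share the 1xCtrl libraries, and those of the first share 3xCTL. In bulk RNA, fewer cells that make a transcript and less of it per cell cannot be told apart.

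In counts, 8 of the 10 genes had enough reads to be tested, and TFF1 and TFF3 did not. Called genes are those with an edgeR adjusted p under 0.05. In 3xSR 1 member was higher, where 15.3% of the 23160 genes tested were higher, and 4 were lower, where 13.7% of all were. In MYC-OE 2 were higher (18% of all genes tested) and 5 lower (17.3%). The SRSF2-OE labelled libraries had 1 higher (11.6% of 24362 genes) and 4 lower (11.9%). SRSF7-OE had 3 higher (9.03%) and 2 lower (8.26%). With SRSF3-OE, where the libraries of the groups did not overlap for 20.6% of all genes in the higher direction and 19.2% in the lower, 0 members were wholly higher and 6 wholly lower; nothing is read from this count, since this contrast chose AGR2. Without 3xCTL replicate 2 or 1xCtrl replicate 2, each of these 4 tested contrasts had as many members higher and lower as with them. Those libraries stood furthest from the others within their own control groups. The median log2 fold change of the 8 members was -0.14 in 3xSR, -0.55 in MYC-OE, -0.72 with SRSF2-OE, -1.96 with SRSF3-OE and 0.48 with SRSF7-OE, where the median over all genes lay between -0.03 and -0.00. Scaling by total counts alone moved that median to -0.14 in SRSF3-OE.

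**Figure D1:**
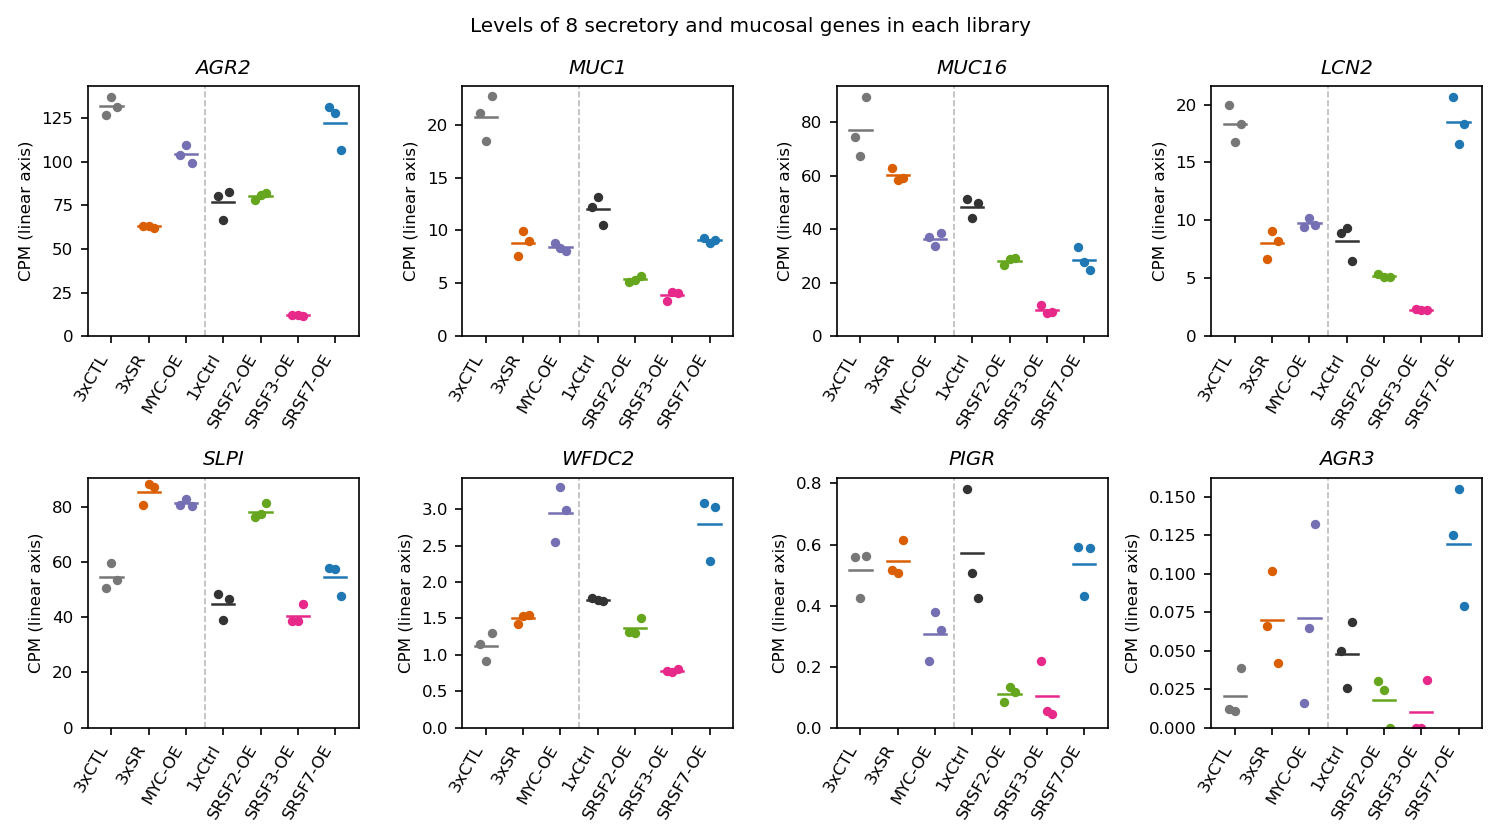
CPM on linear axes for 8 of the genes, with 1 point per library, a line at each group's mean and a dashed line between the tables, which were scaled separately. In SRSF3-OE AGR2 lies between 11.8 and 12.4 CPM, below every other library, while SLPI overlaps its control there.

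Per kilobase of exon, which allows levels of different genes to be compared, SLPI stood highest in both controls (91.4 CPM per kb in 3xCTL and 75.1 in 1xCtrl), followed by AGR2 (46.3 and 27.0). LCN2 came next (11.5 and 5.16), then MUC1 (4.40 and 2.54). MUC16, a transcript of 43830 exon bases, had 1.76 and 1.10 CPM per kb although its plain CPM exceeded that of MUC1. In 3xCTL WFDC2 (0.810 CPM per kb) and PIGR (0.118) followed MUC16, while in 1xCtrl WFDC2 (1.27) lay above MUC16. SRSF3-OE had the same order as 1xCtrl, with SLPI at 68.1, AGR2 at 4.24, LCN2 at 1.43, MUC1 at 0.818, WFDC2 at 0.568 and MUC16 at 0.223 CPM per kb.

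AGR2 (ENSG00000106541.12, GRCh38 chromosome 7, 16791811 to 16833433, minus strand) fell in 3xSR and MYC-OE and rose in SRSF7-OE. In 3xCTL it stood at 127, 137 and 131 CPM, in MYC-OE at 104, 110 and 99.3 CPM, and in 3xSR at 63.4, 63.5 and 62.1 CPM. No library of these 3 groups overlapped another group's, and the 3xSR libraries were the lowest and lay closest together. AGR2 was lower in 3xSR by a log2 fold change of -1.06 (± 0.0526 SE, adjusted p = 5.58e-08 by edgeR) and in MYC-OE by -0.34 (± 0.052 SE, adjusted p = 0.000348 by edgeR).

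The second table showed the widest range of AGR2. It stood at 80.6, 66.6 and 82.9 CPM in 1xCtrl, and at 78.4, 81.0 and 82.4 CPM in the libraries labelled SRSF2-OE. The SRSF7-OE libraries had 132, 128 and 107 CPM and the SRSF3-OE libraries 12.4, 12 and 11.8 CPM. SRSF3-OE lay far below every other library and SRSF7-OE wholly above, while SRSF2-OE and 1xCtrl overlapped. For SRSF3-OE the log2 fold change was -2.67 (SE 0.095), or 6.36-fold lower, and ranged from -2.78 to -2.65 over the alternatives. AGR2 rose in SRSF7-OE by 0.67 (± 0.0891 SE, adjusted p = 0.000447 by edgeR). For SRSF2-OE the log2 fold change was 0.07 (± 0.0888 SE, adjusted p = 0.627 by edgeR), the sign of which changed to -0.03 without 1xCtrl replicate 2. The order of group means was thus SRSF7-OE (122 ± 13.3 CPM), SRSF2-OE (80.6 ± 2.04), 1xCtrl (76.7 ± 8.81) and SRSF3-OE (12.1 ± 0.304; SD, n = 3 each), in which SRSF2-OE and its neighbour 1xCtrl did not differ beyond their spread.

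AGR3 (chromosome 7, 16859405 to 16881987, minus strand) was hardly detected. Its counts were 3, 2 and 7 in 3xCTL, 12, 20 and 6 in 3xSR and 4, 13 and 30 in MYC-OE. In the second table they were 9, 6 and 13 in 1xCtrl, 7, 6 and 0 in SRSF2-OE, 0, 0 and 7 in SRSF3-OE and 30, 37 and 25 in SRSF7-OE. All SRSF7-OE libraries had more AGR3 reads than any other library of that table, but no tested contrast was called, with edgeR adjusted p from 0.0823 for SRSF2-OE against SRSF7-OE to 0.996 for MYC-OE against 3xSR. The first of these passed with limma-voom (adjusted p = 0.0344) and in an edgeR fit of only those groups (adjusted p = 0.0186). A count of 0 here allows a level of up to the 3-count limit given above.

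MUC1 (chromosome 1, 155185824 to 155192916, minus strand) was lower in each group than in the control of its table. It stood at 21.1, 18.5 and 22.7 CPM in 3xCTL, 7.61, 9.94 and 9.03 CPM in 3xSR and 8.82, 8.37 and 8.08 CPM in MYC-OE. Its values were 12.2, 13.2 and 10.5 CPM in 1xCtrl, 5.12, 5.31 and 5.69 CPM in SRSF2-OE, 3.30, 4.21 and 4.06 CPM in SRSF3-OE and 9.27, 8.78 and 9.12 CPM in SRSF7-OE. No library of these 5 groups reached the lowest control library of its table. MUC1 fell in 3xSR by 1.23 on the log2 scale (± 0.105 SE, adjusted p = 4.79e-06 by edgeR), in MYC-OE by 1.30 (± 0.105 SE, adjusted p = 1.91e-06 by edgeR) and in the libraries labelled SRSF2-OE by 1.16 (± 0.11 SE, adjusted p = 1.5e-05 by edgeR). The description for SRSF3-OE was -1.64 (SE 0.112). In SRSF7-OE the log2 fold change was -0.40 (± 0.109 SE, adjusted p = 0.022 by edgeR), and this call was lost without 1xCtrl replicate 1 (-0.44, adjusted p = 0.0592), without SRSF7-OE replicate 1 (-0.45, 0.0538), 2 (-0.40, 0.083) or 3 (-0.43, 0.0608). It was also lost in a fit of only those groups. The longest MUC1 transcript has 71.2% GC, the highest of the 10 genes, and with each library's GC trend removed the SRSF7-OE value was -0.72 (adjusted p = 0.0543). MUC1 is also the only member whose exons share bases with another gene (48 bases of AL713999.1).

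MUC16 (chromosome 19, 8848844 to 8981342, minus strand) was likewise lower in every group than in its control. In 3xCTL it stood at 74.4, 67.2 and 89.4 CPM, in 3xSR at 62.9, 58.3 and 59.3 CPM and in MYC-OE at 37.1, 33.6 and 38.7 CPM. It stood at 51.1, 44.1 and 49.6 CPM in 1xCtrl, 26.8, 28.8 and 29.3 CPM in SRSF2-OE, 11.6, 8.63 and 9.16 CPM in SRSF3-OE and 33.4, 27.8 and 24.6 CPM in SRSF7-OE. SRSF2-OE and SRSF7-OE overlapped each other below 1xCtrl, with SRSF3-OE below both. MUC16 fell in MYC-OE by 1.08 on the log2 scale (± 0.0946 SE, adjusted p = 6.4e-06 by edgeR), in the libraries labelled SRSF2-OE by 0.77 (± 0.122 SE, adjusted p = 0.000684 by edgeR) and in SRSF7-OE by 0.75 (± 0.122 SE, adjusted p = 0.0016 by edgeR). In 3xSR the change was -0.36 (± 0.0936 SE, adjusted p = 0.0147 by edgeR), a call lost without 3xSR replicate 2 (-0.34, adjusted p = 0.0562) or replicate 3 (-0.35, 0.0544). The description for SRSF3-OE was -2.30 (SE 0.127), or 4.93-fold lower.

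LCN2 (chromosome 9, 128149071 to 128153455, plus strand) fell in 3xSR, MYC-OE and the libraries labelled SRSF2-OE and rose in SRSF7-OE. It stood at 19.9, 16.7 and 18.3 CPM in 3xCTL, 6.71, 9.10 and 8.25 CPM in 3xSR and 9.42, 10.2 and 9.64 CPM in MYC-OE. In the second table it stood at 8.91, 9.31 and 6.50 CPM in 1xCtrl, 5.35, 5.12 and 5.14 CPM in SRSF2-OE, 2.35, 2.23 and 2.25 CPM in SRSF3-OE and 20.7, 16.6 and 18.3 CPM in SRSF7-OE. The 4 groups of the second table did not overlap. LCN2 fell by 1.19 on the log2 scale in 3xSR (± 0.108 SE, adjusted p = 7.54e-06 by edgeR), by 0.91 in MYC-OE (± 0.107 SE, adjusted p = 4.3e-05 by edgeR) and by 0.66 in the libraries labelled SRSF2-OE (± 0.124 SE, adjusted p = 0.00194 by edgeR). It rose by 1.17 in SRSF7-OE (± 0.125 SE, adjusted p = 9.73e-05 by edgeR), or 2.25-fold. For SRSF3-OE the value was -1.86 (SE 0.129).

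SLPI (chromosome 20, 45252239 to 45254564, minus strand), an inhibitor of neutrophil elastase, went the other way from MUC1, MUC16 and LCN2 in 3xSR, MYC-OE and SRSF2-OE. It stood at 50.5, 59.4 and 53.4 CPM in 3xCTL, 80.6, 88.0 and 87.1 CPM in 3xSR and 80.5, 82.8 and 80.2 CPM in MYC-OE. In the second table it stood at 48.5, 39.1 and 46.6 CPM in 1xCtrl, 76.1, 77.3 and 81.1 CPM in SRSF2-OE, 38.7, 38.5 and 44.6 CPM in SRSF3-OE and 57.9, 57.5 and 47.7 CPM in SRSF7-OE. SRSF2-OE lay above every other library of its table, while SRSF3-OE and SRSF7-OE each overlapped 1xCtrl. SLPI rose in 3xSR by 0.65 (± 0.0634 SE, adjusted p = 1.49e-05 by edgeR), in MYC-OE by 0.58 (± 0.0633 SE, adjusted p = 2.55e-05 by edgeR) and in the libraries labelled SRSF2-OE by 0.81 (± 0.0959 SE, adjusted p = 8.09e-05 by edgeR). SRSF7-OE gave 0.28 (± 0.0954 SE, adjusted p = 0.0602 by edgeR), which passed without SRSF7-OE replicate 3 (0.35, adjusted p = 0.0267) and with DESeq2 (0.0449). It also passed with the GC trend removed (0.28, adjusted p = 0.0361 by edgeR), with no filter, with total counts alone and with at least 10 counts in every library. In SRSF3-OE, where AGR2, MUC16 and LCN2 were lowest, SLPI had a log2 fold change of -0.14 (SE 0.0955).

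WFDC2 (chromosome 20, 45469706 to 45481532, plus strand), the HE4 protein, was 1 of 2 members that rose in MYC-OE. It stood at 1.15, 0.912 and 1.29 CPM in 3xCTL, 1.43, 1.53 and 1.55 CPM in 3xSR and 2.55, 3.31 and 2.99 CPM in MYC-OE. In the second table it stood at 1.79, 1.76 and 1.74 CPM in 1xCtrl, 1.31, 1.30 and 1.5 CPM in SRSF2-OE, 0.777, 0.767 and 0.813 CPM in SRSF3-OE and 3.08, 2.29 and 3.02 CPM in SRSF7-OE. The groups of each table did not overlap. WFDC2 rose in MYC-OE by 1.39 (± 0.153 SE, adjusted p = 2.52e-05 by edgeR) and in SRSF7-OE by 0.67 (± 0.134 SE, adjusted p = 0.00472 by edgeR). The log2 fold change was 0.42 in 3xSR (± 0.153 SE, adjusted p = 0.0566 by edgeR), which passed without 3xCTL replicate 3 (0.53, adjusted p = 0.0426), and -0.36 in the libraries labelled SRSF2-OE (± 0.135 SE, adjusted p = 0.072 by edgeR), which passed with the GC trend removed (-0.41, 0.0279). The 3xSR value also passed with DESeq2, with the GC trend removed and with at least 10 counts in every library, and the SRSF2-OE value with total counts alone. In SRSF3-OE it was -1.16 (SE 0.138).

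PIGR (chromosome 1, 206928518 to 206946466, minus strand) was low throughout. It stood at 0.560, 0.426 and 0.561 CPM in 3xCTL, 0.516, 0.507 and 0.615 CPM in 3xSR and 0.219, 0.378 and 0.321 CPM in MYC-OE. In the second table it stood at 0.783, 0.507 and 0.426 CPM in 1xCtrl, 0.592, 0.431 and 0.590 CPM in SRSF7-OE, 0.0832, 0.134 and 0.118 CPM in SRSF2-OE and 0.218, 0.0540 and 0.0444 CPM in SRSF3-OE. The SRSF2-OE libraries held 19, 33 and 20 PIGR reads and the SRSF3-OE libraries 43, 10 and 10, all below the 81 to 142 reads of 1xCtrl. PIGR fell in the libraries labelled SRSF2-OE by 2.35 on the log2 scale (± 0.491 SE, adjusted p = 0.00421 by edgeR). In MYC-OE the change was -0.76 (± 0.242 SE, adjusted p = 0.029 by edgeR). That call was lost without 3xCTL replicate 1 (-0.69, adjusted p = 0.0843) or 3 (-0.69, 0.0857) and without MYC-OE replicate 1 (-0.56, 0.108) or 3 (-0.79, 0.059). It was also lost in a fit of only those groups. In 3xSR (0.08, ± 0.239 SE, adjusted p = 0.845 by edgeR) and SRSF7-OE (-0.09, ± 0.447 SE, adjusted p = 0.926 by edgeR) PIGR was not called. The description for SRSF3-OE was -2.44 (SE 0.496), and -3.58 without SRSF3-OE replicate 1.

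TFF1 (chromosome 21, 42362282 to 42366594) had 8 reads in 3xCTL replicate 1, 6 in 3xSR replicate 2, 9 in SRSF7-OE replicate 2 and 11 in SRSF7-OE replicate 3, and 0 in the other libraries. TFF3 (chromosome 21, 42311667 to 42315651) had 0 reads in all 21 libraries, which allows up to 0.0210 CPM in the shallowest. The trefoil genes, which are known as luminal and oestrogen-responsive, were thus at or near the limit of detection while AGR2 and SLPI were abundant.

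**Figure D2:**
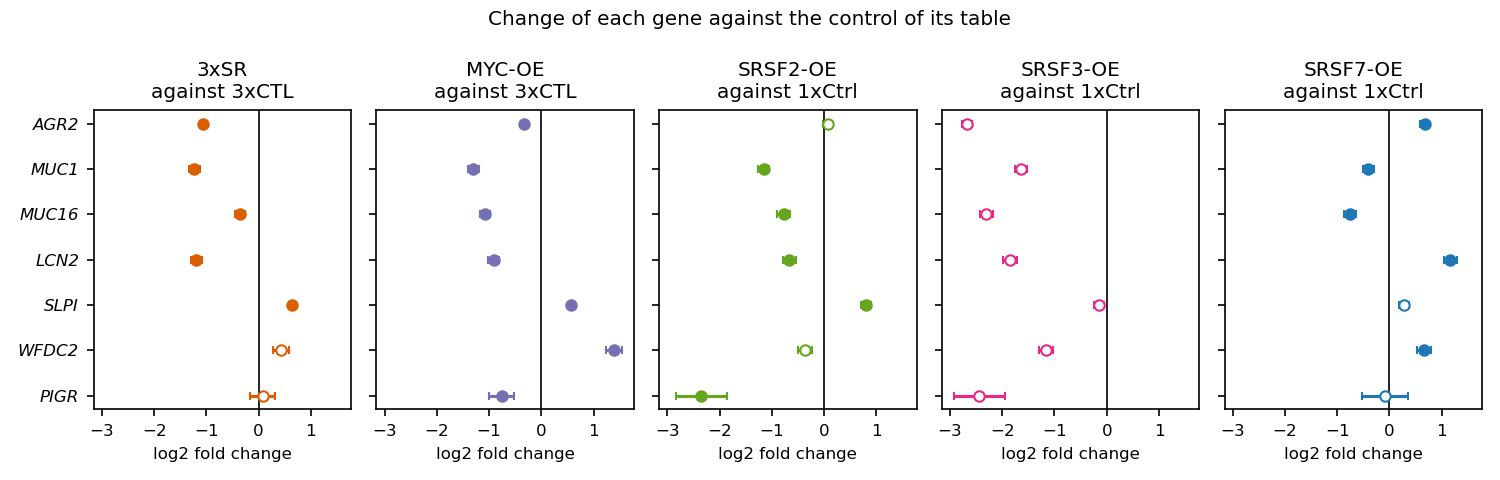
Log2 fold change of 7 genes in each group against the control of its table, with bars of 1 SE. Filled points have an edgeR adjusted p under 0.05 and open points do not, except that all SRSF3-OE points are open because they were not tested; AGR2 lies at -2.67 there and at 0.67 in SRSF7-OE.

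Groups other than the controls were also set against each other, within a table. Between MYC-OE and 3xSR 2 members were higher in MYC-OE (17.3% of genes tested were) and 2 lower (17.6%), with a members' median of -0.03. AGR2 was 0.73 higher in MYC-OE on the log2 scale (± 0.0524 SE, adjusted p = 2.23e-06 by edgeR) and WFDC2 0.97 higher (± 0.152 SE, adjusted p = 0.000476 by edgeR), while MUC16 fell by 0.72 (± 0.0942 SE, adjusted p = 0.000186 by edgeR). PIGR was lower by a log2 fold change of -0.84 (± 0.243 SE, adjusted p = 0.0192 by edgeR), a call lost without 3xSR replicate 3 (-0.74, adjusted p = 0.0721) or MYC-OE replicate 1 (-0.64, 0.0724). MUC1 was not called (-0.07, ± 0.104 SE, adjusted p = 0.627 by edgeR), but was with the GC trend removed (-0.57, 0.00424). LCN2 gave 0.28 (± 0.107 SE, adjusted p = 0.0586 by edgeR), and passed without 3xSR replicate 2 (0.39, adjusted p = 0.0218) and with DESeq2 (0.29, 0.0289). It also passed with upper-quartile scaling, with at least 10 counts in every library and in a fit of only those groups. SLPI, raised in both groups, gave -0.07 (± 0.0631 SE, adjusted p = 0.421 by edgeR).

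Between the libraries labelled SRSF2-OE and SRSF7-OE 1 member was higher in the former (11.5% of genes tested were) and 5 lower (12.8%), with a members' median of -0.89. LCN2 was lower by a log2 fold change of -1.83 (± 0.127 SE, adjusted p = 1.52e-06 by edgeR), PIGR by -2.26 (± 0.489 SE, adjusted p = 0.00502 by edgeR), WFDC2 by -1.03 (± 0.135 SE, adjusted p = 0.000156 by edgeR) and AGR2 by -0.60 (± 0.089 SE, adjusted p = 0.000372 by edgeR). MUC1 was lower by -0.75 (± 0.109 SE, adjusted p = 0.000319 by edgeR), a call lost with the GC trend removed (-0.45, 0.201). SLPI was 0.52 higher (± 0.0954 SE, adjusted p = 0.00151 by edgeR). MUC16 gave -0.02 (± 0.121 SE, adjusted p = 0.943 by edgeR).

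The genes nearest to AGR2 over the 5 contrasts against a control, by the root mean square difference of the log2 fold changes among 14317 genes of at least 1 CPM, were KRT4 (0.363), FGD3 (0.395), MUC20P1 (0.396), LCN12 (0.407) and MUC20 (0.408). KRT4, a keratin of stratified mucosal epithelium, stood at 34.2 ± 3.39 CPM in SRSF3-OE and 180 ± 11.5 CPM in 1xCtrl, and had a log2 fold change of -0.57 in 3xSR (± 0.0554 SE). MUC20, a membrane mucin, stood at 5.11 ± 0.0428 CPM in SRSF3-OE, 39.5 ± 4.15 CPM in SRSF7-OE and 21.3 ± 4.82 CPM in 1xCtrl. Its log2 fold change was 0.89 in SRSF7-OE (± 0.132 SE) and -1.05 in 3xSR (± 0.16 SE). MUC20P1 is a near-identical copy of MUC20 and the split of reads between them is uncertain. FGD3, an exchange factor for a small GTPase, had -1.13 in 3xSR (± 0.121 SE) and stood at 1.39 ± 0.105 CPM in SRSF3-OE against 4.93 ± 1.66 CPM in 1xCtrl. LCN12, another lipocalin, had a wide spread (1.41 ± 0.803 CPM in 1xCtrl, against 0.157 ± 0.0569 in SRSF3-OE). AGR2 had a log2 fold change of -0.34 in MYC-OE, where those of KRT4 (0.15) and MUC20 (0.21) were positive. FGD3 (-0.15), MUC20P1 (-0.0031) and LCN12 (-0.28) had negative values there. Among the members LCN2 was nearest to AGR2, at rank 31, followed by MUC16 (267) and MUC1 (492), with WFDC2 at 3267 and SLPI at 11105. These genes were picked by the same contrasts and are given with no test, and the large SRSF3-OE change of AGR2 weighs most in the measure.

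**Figure D3:**
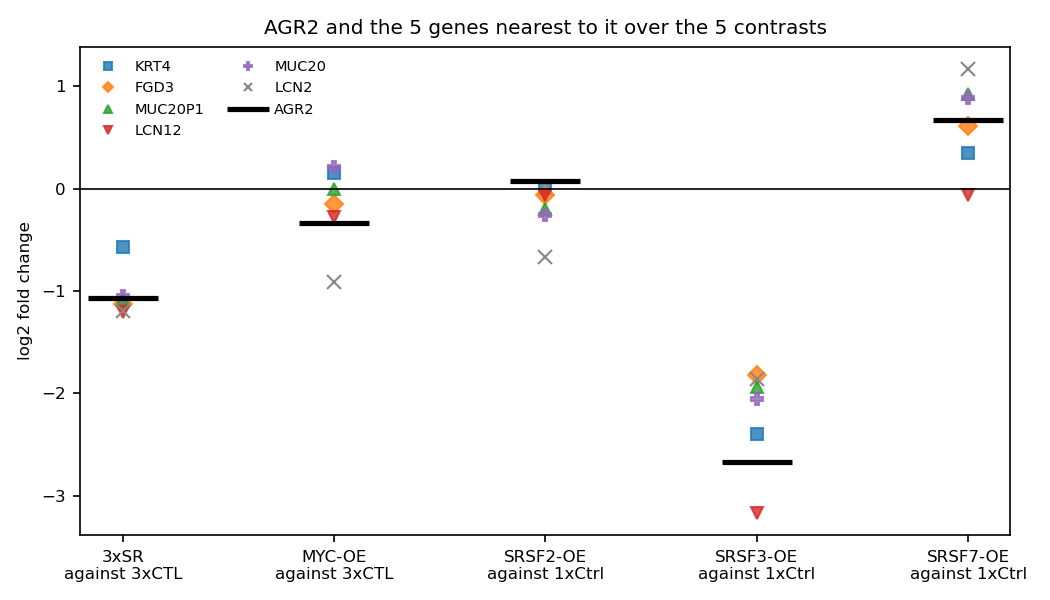
Log2 fold changes of AGR2 (black bars), of the 5 genes nearest to it and of LCN2 (crosses) in each group against its control. All of them lie below 0 in 3xSR and in SRSF3-OE, and LCN12 departs most from AGR2 in SRSF7-OE.

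Of 20 protein disulfide isomerases and reported AGR2 partners, all 20 tested, 12 rose and 2 fell in MYC-OE, with a median log2 fold change of 0.23, where 18% of all genes tested rose and 17.3% fell. PDIA2, a pancreas-type isomerase, was the highest (1.94 ± 0.281 against 0.531 ± 0.0995 CPM, log2 fold change 1.87, ± 0.202 SE, adjusted p = 2.19e-05 by edgeR), and ERP27, an endoplasmic reticulum protein that binds PDIA3, fell by 0.72 (± 0.142 SE, adjusted p = 0.00187 by edgeR). In 3xSR 4 rose and 5 fell (15.3% and 13.7% of all genes), and 14 were called without 3xCTL replicate 2. DNAJC10, a disulfide reductase, rose by 0.32 (± 0.0699 SE, adjusted p = 0.00503 by edgeR) and ERP27 fell by 0.91 (± 0.144 SE, adjusted p = 0.000575 by edgeR). The libraries labelled SRSF2-OE had 4 higher and 4 lower (11.6% and 11.9% of all genes), with DAG1, the dystroglycan precursor reported to bind AGR2, lower (130 ± 6.09 against 191 ± 21.4 CPM, -0.56, ± 0.0793 SE, adjusted p = 0.000309 by edgeR). ERP29, highest there (0.37, ± 0.0881 SE, adjusted p = 0.00885 by edgeR), was not called without 1xCtrl replicate 1 (0.24, adjusted p = 0.17) or 3 (0.26, 0.0969) or without SRSF2-OE replicate 1 (0.37, 0.055), 2 (0.28, 0.146) or 3 (0.30, 0.126). In SRSF7-OE 6 rose and 1 fell (9.03% and 8.26% of all genes), led by ERP27 (2.46 ± 0.057 against 1.54 ± 0.0442 CPM, 0.68, ± 0.115 SE, adjusted p = 0.00197 by edgeR), and TMX3, a transmembrane thioredoxin-like protein, fell by 0.32 (± 0.0845 SE, adjusted p = 0.0189 by edgeR). In SRSF3-OE 9 lay wholly above and 4 wholly below 1xCtrl, as 20.6% and 19.2% of all genes did. Counts such as 4 of 20 lie near the share over all genes.

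Of 17 other mucins 11 were tested. MUC4, a membrane mucin that binds ERBB2, fell in 3xSR by 1.09 (2.24 ± 0.324 against 4.78 ± 0.861 CPM, ± 0.154 SE, adjusted p = 0.000247 by edgeR) and rose in SRSF7-OE by 1.08 (4.37 ± 0.781 against 2.06 ± 0.444 CPM, ± 0.194 SE, adjusted p = 0.00255 by edgeR). In SRSF3-OE MUC4 stood at 0.239 ± 0.0548 CPM, a log2 fold change of -3.11 (SE 0.217). Its -0.61 in the libraries labelled SRSF2-OE (± 0.195 SE, adjusted p = 0.0365 by edgeR) was not called with the replicate block (-0.61, adjusted p = 0.0649), without 1xCtrl replicate 1 (-0.52, 0.122) or without SRSF2-OE replicate 1 (-0.66, 0.0854), 2 (-0.60, 0.109) or 3 (-0.72, 0.0561). In all, 2 other mucins rose and 4 fell in 3xSR, 3 rose in MYC-OE, 1 rose and 1 fell in SRSF2-OE and 2 rose in SRSF7-OE. The shares over all genes were 15.3% and 13.7% in 3xSR, 18% higher in MYC-OE, 11.6% and 11.9% in SRSF2-OE and 9.03% higher in SRSF7-OE, and most of these counts out of 11 lie near them. In SRSF3-OE 2 lay wholly above and 3 wholly below 1xCtrl (20.6% and 19.2% of all genes). In MYC-OE the highest of these mucins called with a mean of at least 1 CPM was MUC15 (0.62, ± 0.173 SE, adjusted p = 0.015 by edgeR). It was not called without 3xCTL replicate 3 (0.57, 0.0522) or MYC-OE replicate 2 (0.58, 0.0531). In the second table MUC15 stood at 1.35 ± 0.205 CPM in SRSF2-OE against 0.570 ± 0.180 CPM in 1xCtrl, with no overlap of libraries.

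Other secreted mucosal and luminal proteins, 34 in the list, mostly rose where they were called. Since the list was chosen with earlier results of these data known, its counts beside the shares over all genes are a description only. In 3xSR 12 rose and 2 fell of 23 tested, with a median log2 fold change of 1.03, in MYC-OE 15 rose and 1 fell of 23 with a median of 1.35, and in the libraries labelled SRSF2-OE 9 rose and 2 fell of 24 with a median of 0.28. Of all genes tested 15.3% rose and 13.7% fell in 3xSR, 18% and 17.3% in MYC-OE and 11.6% and 11.9% in SRSF2-OE. PI3 (elafin), an elastase inhibitor of the same family as SLPI, rose with it in all 3 contrasts, from 8.77 ± 0.633 CPM in 3xCTL to 44.3 ± 1.79 CPM in 3xSR (log2 fold change 2.34, ± 0.0635 SE, adjusted p = 7.77e-10 by edgeR) and 53.7 ± 1.12 CPM in MYC-OE (2.61, ± 0.064 SE, adjusted p = 1.75e-10 by edgeR), and from 23.7 ± 1.95 CPM in 1xCtrl to 59.0 ± 5.37 CPM in SRSF2-OE (1.32, ± 0.0866 SE, adjusted p = 9.79e-07 by edgeR). CEACAM5, the carcinoembryonic antigen, was highest in MYC-OE (9.46 ± 0.238 against 0.981 ± 0.126 CPM, 3.27, ± 0.113 SE, adjusted p = 2.03e-09 by edgeR), and S100P, a calcium-binding protein, in SRSF2-OE (6.95 ± 0.267 against 2.35 ± 0.157 CPM, 1.57, ± 0.137 SE, adjusted p = 8.32e-06 by edgeR). OLFM4, a secreted glycoprotein of mucosal crypts, went against the list, from 5.62 ± 0.699 CPM in 3xCTL to 0.263 ± 0.0355 CPM in 3xSR (-4.41, ± 0.207 SE, adjusted p = 3.95e-08 by edgeR) and 0.489 ± 0.122 CPM in MYC-OE (-3.52, ± 0.194 SE, adjusted p = 8.19e-08 by edgeR). It also fell in SRSF2-OE (-2.35, ± 0.353 SE, adjusted p = 0.000434 by edgeR) and SRSF7-OE (-3.21, ± 0.368 SE, adjusted p = 0.00016 by edgeR), and stood at 0.135 ± 0.00596 CPM in SRSF3-OE against 1.63 ± 0.262 CPM in 1xCtrl.

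In SRSF7-OE 5 genes of that list rose and 2 fell of 24 (9.03% and 8.26% of all genes), and without 1xCtrl replicate 2 this came to 11 calls. CST6, a secreted cystatin, gave 1.25 (± 0.285 SE, adjusted p = 0.00962 by edgeR), and was not called without 1xCtrl replicate 1 (1.15, adjusted p = 0.0668) or SRSF7-OE replicate 1 (1.08, 0.0612). CEACAM6, a relative of CEACAM5, gave -0.50 (± 0.115 SE, adjusted p = 0.00992 by edgeR). In SRSF3-OE 2 of the list lay wholly above 1xCtrl and 14 wholly below (20.6% and 19.2% of all genes), with a median log2 fold change of -0.87.

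Among 25 regulators of luminal and secretory genes, 24 of them tested, calls were split. In 3xSR 6 rose and 7 fell, where 15.3% and 13.7% of all genes did. KLF4, a differentiation factor of surface epithelium, rose by 0.37 (± 0.0774 SE, adjusted p = 0.00343 by edgeR), and GATA3, a luminal transcription factor, fell from 25.7 ± 1.61 to 19.1 ± 0.942 CPM (-0.43, ± 0.0622 SE, adjusted p = 0.000291 by edgeR). In MYC-OE 10 rose and 4 fell (18% and 17.3% of all genes), with CEBPD, a stress-responsive factor, lower by -0.53 (± 0.127 SE, adjusted p = 0.00646 by edgeR). Of the SRSF2-OE labelled libraries' calls 5 rose and 6 fell (11.6% and 11.9% of all genes), with NFKBIZ, an NF-kB co-regulator known to act on LCN2, lower (70.4 ± 1.69 against 96.1 ± 10.7 CPM, -0.45, ± 0.0815 SE, adjusted p = 0.00159 by edgeR). CEBPB was the highest called in MYC-OE (0.39) and in SRSF2-OE (0.58), and was not called with the GC trend removed (0.21, adjusted p = 0.311, and 0.52, 0.196). In SRSF7-OE 8 rose and 2 fell (9.03% and 8.26% of all genes). ELF3, an epithelium-specific ETS factor, rose there from 49.0 ± 5.71 to 83.8 ± 3.69 CPM (0.77, ± 0.0804 SE, adjusted p = 7.81e-05 by edgeR), while ELF5, a luminal progenitor factor, fell (-0.95, ± 0.2 SE, adjusted p = 0.00618 by edgeR). ELF3 stood at 17.9 ± 1.27 CPM in SRSF3-OE, a log2 fold change of -1.45 (SE 0.082). ELF5 was low there too, at 0.227 ± 0.0658 CPM against 1.46 ± 0.257 CPM in 1xCtrl. Of the list, 3 genes lay wholly above and 10 wholly below 1xCtrl in SRSF3-OE, as did 20.6% and 19.2% of all genes.

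Mucin-type O-glycosylation, the stepwise building of sugar chains on mucins in the Golgi, was covered by 24 enzymes, of which 23 were tested. In the libraries labelled SRSF2-OE 13 fell and 0 rose, with a median log2 fold change of -0.34, where 11.9% of all genes fell and 11.6% rose. In 3xSR 6 rose and 10 fell (15.3% and 13.7% of all genes), and in MYC-OE 10 rose and 8 fell (18% and 17.3%). ST6GALNAC1, which caps the first sugar with sialic acid, fell in MYC-OE from 11.7 ± 0.234 to 4.71 ± 0.073 CPM (-1.32, ± 0.076 SE, adjusted p = 1.19e-07 by edgeR) and to 4.66 ± 0.228 CPM in 3xSR (-1.33, ± 0.0762 SE, adjusted p = 1.86e-07 by edgeR). It also fell in SRSF2-OE (-1.27, ± 0.118 SE, adjusted p = 1.28e-05 by edgeR) and SRSF7-OE (-0.59, ± 0.116 SE, adjusted p = 0.0044 by edgeR), and stood at 1.51 ± 0.111 CPM in SRSF3-OE against 6.95 ± 0.324 CPM in 1xCtrl. GCNT1, which builds the core 2 branch, was lowest in 3xSR (9.76 ± 0.302 against 25.0 ± 1.60 CPM, -1.35, ± 0.0884 SE, adjusted p = 5.59e-07 by edgeR), where its relative GCNT3 rose by 0.87 (± 0.172 SE, adjusted p = 0.00259 by edgeR); GCNT3 rose by 0.90 in MYC-OE (± 0.172 SE, adjusted p = 0.0015 by edgeR). In SRSF7-OE 1 rose and 3 fell, near the 9.03% and 8.26% of all genes, with GALNT1 at 0.43 (± 0.0739 SE, adjusted p = 0.002 by edgeR) and GALNT5 at -0.62 (± 0.0846 SE, adjusted p = 0.000532 by edgeR), both enzymes that add the first sugar. Without 1xCtrl replicate 2 that count was 11 (6 higher and 5 lower). In SRSF3-OE 4 lay wholly above and 10 wholly below 1xCtrl (20.6% and 19.2% of all genes).

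**Figure D4:**
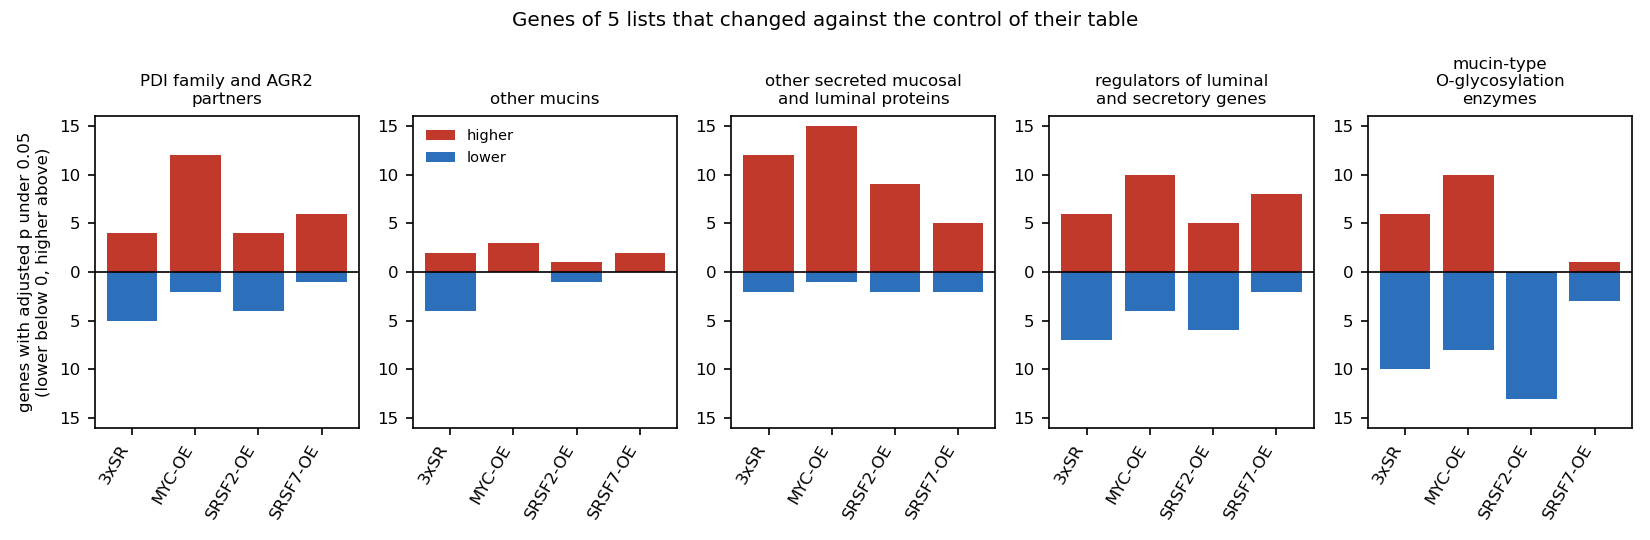
Number of genes in each of the 5 lists with an edgeR adjusted p under 0.05 against the control of their table, higher above 0 and lower below it. The secreted proteins reach 15 higher in MYC-OE, and the O-glycosylation enzymes have 13 lower and 0 higher in SRSF2-OE; SRSF3-OE was not tested and is not shown.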

How the data were processed

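The deposited values are whole-number counts per gene in 2 tables of the authors (9 and 12 libraries), stranded polyA RNA-seq per the labels' protocols. The submitters' processing notes name Trimmomatic 0.39, STAR, StringTie 2.1.3b and GRCh38.p13; annotation, strand setting and what each tool made are not given in the sources used here. Symbols, positions, exon lengths and GC came from GENCODE 29, which held 58561 of the 60668 identifiers.

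In R 4.3.3, edgeR 4.0.16 fitted each table over all its groups: filterByExpr (minimum count 10, minimum total 15), TMM, robust quasi-likelihood F tests of either direction, Benjamini-Hochberg adjustment over all genes tested, threshold 0.05. The SE is the absolute log2 fold change over the square root of F. CPM per kb divides CPM by the gene's merged exon length. Alternatives used RLE, upper-quartile and total-count scaling, other filters, DESeq2 1.42.0, limma-voom (limma 3.58.1), a GC trend removed in 50 bins, a replicate block, only the groups compared, a minimum absolute log2 fold change of 1, and leaving out each library.

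The members and lists were chosen with earlier results of these data known. Named list genes are the highest and lowest called per list and contrast with a mean of at least 1 CPM. Values of PI3, OLFM4, MUC4, MUC15, ELF3, ELF5 and ST6GALNAC1 in further contrasts were added after they were seen. Replicates differed by more than counting error (chi-square per degree of freedom 12.7 to 214). The procedure was tested on simulated data. Floors cover counting error only, since reads are not independent molecules. 1 listed marker gene is not reported here.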

Additional observations from a re-analysis of the deposited data

How the results depend on the processing

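The number of members called was 5 in 3xSR, 7 in MYC-OE, 5 in SRSF2-OE, 5 in SRSF7-OE, 4 in MYC-OE against 3xSR and 6 in SRSF2-OE against SRSF7-OE, and stayed within 1.5 times that under every alternative except a test against an absolute log2 fold change of 1. That test left 0, 0, 0, 0, 0 and 1 members, so in these contrasts no member, apart from that 1, was shown to change by more than this; SRSF3-OE against 1xCtrl was not tested. Leaving out 1 library gave 4 to 6, 6 to 7, 5 to 5, 4 to 5, 3 to 5 and 6 to 6 members, and the AGR2 value in SRSF3-OE ran from -2.77 to -2.65. Same-numbered replicates did not deviate together (mean correlations from -0.107 to 0.0118), so no pairing by number was seen. The labels do not say whether same-numbered libraries were prepared together. With the replicate block the member counts were 5, 7, 5, 5, 4 and 6, and AGR2 in SRSF3-OE was -2.67. Among the changes given here, signs turned only where the change was not called. With 1 library left out, PIGR ran from -0.040 to 0.13 in 3xSR and from -0.28 to 0.16 in SRSF7-OE, AGR2 from -0.027 to 0.091 in SRSF2-OE, MUC1 from -0.17 to 0.028 and AGR3 from -0.81 to 0.48 in MYC-OE against 3xSR, and MUC16 from -0.12 to 0.095 in SRSF2-OE against SRSF7-OE. MUC16 was also 0.017 there with upper-quartile scaling. AGR3 in MYC-OE against 3xSR was -0.0081 with total counts alone, -0.42 with limma-voom, -0.00059 with only those groups and -0.36 with the replicate block. Of the lists, other mucins had 5 calls in MYC-OE with the GC trend removed against 3, and 1 in SRSF2-OE with the replicate block against 2; O-glycosylation enzymes had 9 in SRSF7-OE with the GC trend removed against 4. These list alternatives were chosen after seeing the data. Depth limits AGR3, PIGR, TFF1 and TFF3. The causes were not tested.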
